A study of Arabidopsis thaliana with 9 samples.

Results

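The nuclear genes of Arabidopsis thaliana for photosystem subunits, light-harvesting antenna proteins and the small subunit and activase of RuBisCO were followed in dissected inflorescence meristems. They were taken as a list of 46 locus identifiers defined by gene function, with no threshold on measured values, and 45 of these were among the 25760 genes in the deposited tables. LHCB1.5 was not analysed here. All 45 passed the filter on low counts, which left 22671 genes for testing. They comprised 13 LHCB genes (antenna of photosystem II), 6 LHCA genes (antenna of photosystem I), 12 PSA genes (core subunits of photosystem I), 9 PSB genes (subunits of photosystem II), and 5 RuBisCO genes, of which 4 were RBCS small subunits and 1 was RCA, the RuBisCO activase.

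RNA sequencing had been done on 3 genotypes with 3 libraries each. They comprised col-0, which is the wild type, the mutant line csld5, and pATML1::GFP+CSLD5-csld5, in which a transgene for GFP and CSLD5 is carried by the mutant and which is called complemented here. CSLD5 is a cellulose synthase-like protein of the cell wall. The transgene is driven by the ATML1 promoter, which is known for activity in the epidermal layer, and not by the promoter of CSLD5 itself. Plant age, the csld5 allele and the number of plants behind a library are not stated in the labels. They also do not say whether libraries of 1 genotype were taken from different plants, so each p-value reflects spread among libraries that may be technical. CSLD5 was at 57.1 ± 2.74 TPM (transcript abundance scaled for transcript length and library; SD, n = 3) in col-0, 11.3 ± 0.391 TPM in csld5 and 399 ± 34.3 TPM in the complemented line (adjusted p = 2.24e-10 for csld5 against col-0, edgeR), which matches the order of the labels. The libraries held 35543318 to 45679471 counted reads. The library col-0 replicate 1 listed 0 genes with a count of 0 where the others listed 932 to 1540, and the counts of called members without it are given in the 3 comparisons.

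Light energy is taken up by chlorophyll bound to the LHCA and LHCB proteins and passed to the photosystem cores, where water is split and electrons move through the thylakoid membrane to ferredoxin. RuBisCO then fixes carbon dioxide with the ATP and reducing power made there. The core proteins that bind most cofactors, and the large subunit of RuBisCO, are encoded by the chloroplast genome, whereas the antenna proteins, the peripheral subunits and the small subunit of RuBisCO are made from nuclear genes and imported. A shoot meristem is not a main photosynthetic organ, yet its cells hold plastids and the young floral organs around it green early.

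The members were among the most abundant transcripts of the dissected tissue. Their mean TPM over the 9 libraries lay at a median percentile of 99.7 among all tested genes, with a lowest percentile of 84.8. Together they held 5.04 ± 0.106% of all counts in col-0 (SD, n = 3), 5.10 ± 0.149% in csld5 and 4.78 ± 0.118% in the complemented line. In TPM, which takes transcript length into account, RBCS1A was highest with a mean of 9225 over the 9 libraries, followed by LHCB1.3 with 7948, RBCS3B with 3516 and PSBR with 2797. LHCA6 with 49.0 and LHCB1.4 with 77.8 were lowest. Counting depth was ample, with at least 1297 reads per library for each member other than PSAG, whose counts ran from 814 to 2226, and at most 342238.

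PSAG and PSAE1 need a caution before their values are read. For the other 43 members the deposited TPM was 1.12 to 2.54 times the CPM (counts scaled to the library's total) per kilobase of exon, but for PSAG it was 32.6 times and for PSAE1 8.56 times. Among all tested genes with an annotated length 2.59% had a ratio above 5. PSAG (chromosome 1, bases 20802670 to 20803449 of the RefSeq annotation of TAIR10.1) overlaps the gene model AT1G55673 on the opposite strand, and PSAE1 overlaps AT4G28740 and AT4G28755 on the opposite strand. The deposited counts and the deposited TPM thus place these genes at different levels, and results from both are given. The part of the overlapping gene models in this was not tested. The gene models of 17 members overlap another gene model, 16 of them on the other strand, and the strand setting of the counting is not given in the sources used here. In 10 members, among them all 4 LHCB1 genes, LHCB2.1, LHCB2.2 and 3 RBCS genes, 10.7 to 29.5% of 50-base windows occur at another place in the genome, so reads of these copies may have been split or dropped.

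The bases before the gene start were read for 3 short motifs known from light-regulated promoters: the G-box CACGTG, bound by bZIP and bHLH factors, the I-box GATAAG, and CCAATC, found upstream of targets of the GLK factors that promote chloroplast development. Both strands of the 250 bases before each annotated start were searched. The G-box was present in 9 of 45 members (20%) against 6.69% of 25636 promoters of the same length, the I-box in 11 (24.4%) against 12.3%, and CCAATC in 11 (24.4%) against 10.3%. CCAATC stood before 6 of 13 LHCB, 3 of 6 LHCA, 0 of 12 PSA, 1 of 9 PSB and 1 of 5 RuBisCO genes. In the same order of roles the I-box stood before 3, 1, 4, 1 and 2 genes, and the G-box before 3, 1, 2, 2 and 1. The G-box reads the same on both strands, and no matches overlap in the windows shown. Any of the 3 motifs was present in 19 of 45 members (42.2%) against 26.4% of promoters. PSBO1, PSBO2, PSAG and PSBR, also called in csld5 against col-0, had no match. A match is a description of the letters in this window and not a binding site. The windows of LHCB4.1 and RCA, members with higher counts in csld5, and of PSAK and PSAH2, members with lower counts, are shown 5′ to 3′ on the strand of the gene, with matches on either strand in capitals. They lie at chr5:208616-208865 (plus strand), chr2:16573693-16573942 (minus strand), chr1:10721933-10722182 (plus strand) and chr1:19454548-19454797 (plus strand) of RefSeq TAIR10.1.
LHCB4.1: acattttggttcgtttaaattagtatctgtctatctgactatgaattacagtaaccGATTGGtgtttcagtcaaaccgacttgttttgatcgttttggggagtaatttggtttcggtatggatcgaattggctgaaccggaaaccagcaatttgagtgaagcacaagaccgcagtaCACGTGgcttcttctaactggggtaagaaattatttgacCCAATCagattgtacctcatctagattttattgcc
RCA: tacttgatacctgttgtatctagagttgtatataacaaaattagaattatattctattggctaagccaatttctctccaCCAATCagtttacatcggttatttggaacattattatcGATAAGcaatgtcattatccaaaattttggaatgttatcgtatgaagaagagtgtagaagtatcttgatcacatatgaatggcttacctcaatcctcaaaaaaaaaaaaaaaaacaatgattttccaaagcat
PSAK: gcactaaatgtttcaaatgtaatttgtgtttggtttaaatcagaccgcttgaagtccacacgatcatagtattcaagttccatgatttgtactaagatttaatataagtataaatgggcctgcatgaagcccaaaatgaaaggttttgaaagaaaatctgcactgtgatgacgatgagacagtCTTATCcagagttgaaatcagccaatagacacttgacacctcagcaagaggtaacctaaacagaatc
PSAH2: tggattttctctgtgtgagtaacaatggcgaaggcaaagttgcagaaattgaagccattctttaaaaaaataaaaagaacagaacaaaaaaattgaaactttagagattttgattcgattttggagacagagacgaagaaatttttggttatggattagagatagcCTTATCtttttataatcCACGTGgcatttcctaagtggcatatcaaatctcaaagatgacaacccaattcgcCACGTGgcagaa
LHCB4.1 held both a G-box and CCAATC, the latter on both strands, RCA held an I-box and CCAATC, PSAK held an I-box, and PSAH2 held an I-box and a G-box at 2 places.

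In csld5 against col-0, 16 of the 45 members rose, 11 fell and 18 did not pass the test (edgeR quasi-likelihood test, Benjamini-Hochberg adjusted p under 0.05 over all 22671 genes). The background was 41.5% of all tested genes, 21.1% higher and 20.4% lower. The directions differed between the roles. Of the LHCB genes 9 of 13 rose and 0 fell, with a median log2 fold change of 0.22. Of the PSA genes 1 of 12 rose and 8 fell, with a median of -0.30. The LHCA genes had 2 of 6 higher and 0 lower (median 0.12), the PSB genes 3 of 9 higher and 3 lower (median 0.02), and the RuBisCO genes 1 of 5 higher and 0 lower (median 0.06). The median over all tested genes was -0.02. At an unadjusted p under 0.05, and by DESeq2 and by limma on TPM, the numbers of lower LHCB and LHCA genes were also 0. Of all genes DESeq2 called 4518 of 25760 lower and limma 4713 of 21491. With the length and GC correction given below, 1 LHCB gene was lower. In a bulk sample such as this one, fewer cells of a type and less RNA per cell cannot be told apart.

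Without col-0 replicate 1 the split was 12 higher and 9 lower, where all tested genes had 3796 higher and 3607 lower of 22924. The changes were small, and most were below a log2 size of 0.5, which 3 higher and 2 lower members exceeded. In 18 members the 3 csld5 libraries all lay above the 3 col-0 libraries in CPM, against 25.2% of all tested genes, and in 10 they all lay below, against 25.8%. Under scaling by library totals alone, without TMM factors (trimmed mean of M values, edgeR's library scaling), the split was 10 higher and 12 lower, against 15.5% and 28.2% of all tested genes. That scaling moved the median of all tested genes from -0.02 to -0.10.

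**Figure D1:**
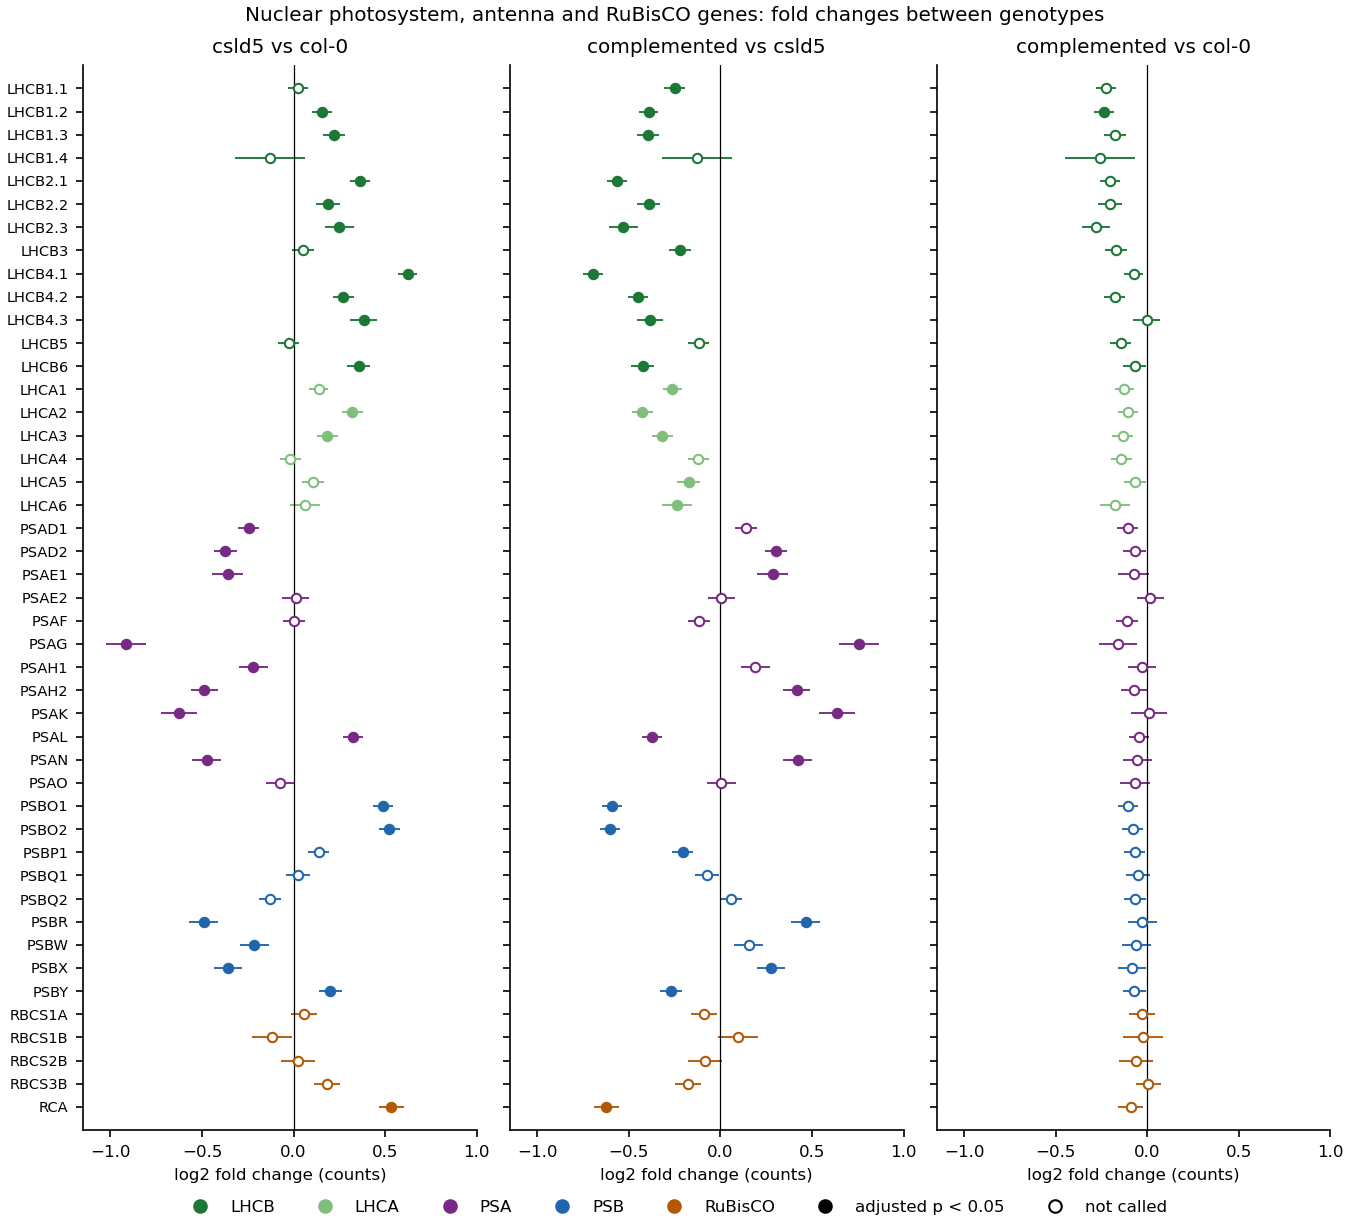
Log2 fold change of each of the 45 members in the 3 comparisons, with its standard error; filled points passed an adjusted p of 0.05 (edgeR, 3 libraries per genotype). LHCB points lie mostly right of 0 and PSA points left of 0 in csld5 against col-0, the reverse holds for complemented against csld5, which shares the csld5 libraries. In complemented against col-0 42 of the 45 points lie left of 0, with an LHCB median of -0.18 and an LHCA median of -0.13, and 1 point is filled.

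Fold changes followed transcript length and GC content in this comparison, and the roles differ in both. Over 22580 tested genes with an annotated model the log2 fold change of csld5 against col-0 had a Spearman rho of 0.37 with exon length and 0.40 with exon GC percent. Over the 45 members these were 0.66 and 0.53. These are correlations across genes, which are not independent replicates. The PSA genes had a median exon length of 887.5 bases (607 to 1300) against 1314 bases (1143 to 1465) for the LHCB genes, and a median GC of 42.1% against 46.4%. The 16 members that rose had a median length of 1382 bases and the 11 that fell 798 bases. Length and GC took up a share (R2) of each library's deviation from the mean profile of 0.0254 to 0.0493 in col-0, of 0.0918, 0.142 and 0.339 in csld5 replicates 1, 2 and 3, and of 0.128 to 0.215 in the complemented line.

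With a smooth curve of length and GC removed from each library, 9 members were higher and 8 lower, against a background of 15.4% and 17.7% (33.1% in all), and 28 did not pass. Leaving out 1 csld5 library moved this split to 4 higher and 13 lower (without replicate 1), 6 and 5 (without replicate 2) or 5 and 5 (without replicate 3). All tested genes then had 2984 higher and 3956 lower of 22993, 3212 and 3107 of 22978, and 2973 and 3010 of 22988. With all 9 libraries the corrected LHCB genes had 4 higher and 1 lower (median -0.04), and the LHCA genes 0 and 0 (median 0.04). The PSA genes had 1 higher and 5 lower (median -0.17), the PSB genes 2 and 2 (median -0.01) and the RuBisCO genes 2 and 0 (median 0.12). Called in the same direction by both fits were 8 higher members (LHCB2.1, LHCB2.3, LHCB4.1, LHCB4.3, PSAL, PSBO2, PSBY and RCA) and 7 lower ones (PSAD2, PSAE1, PSAG, PSAK, PSAN, PSBR and PSBX). The Spearman rho of the 45 corrected values with length was 0.50, and that with GC 0.06. Over the 22580 tested genes with an annotated model the corrected values had a rho of 0.004 with length and 0.02 with GC.

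**Figure D2:**
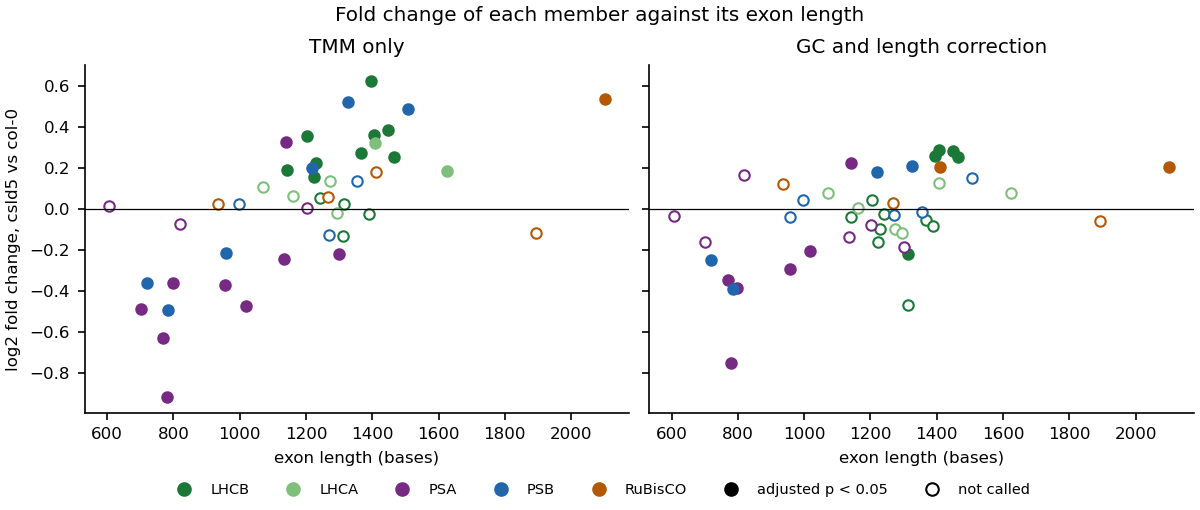
Log2 fold change of csld5 against col-0 (vertical axis) against exon length in bases (horizontal axis) for the 45 members, before (left) and after (right) a curve of length and GC was removed from each library; filled points passed an adjusted p of 0.05. Before the correction the 11 lower members have a median length of 798 bases and the 16 higher ones 1382 bases, and after it the range of values is narrower.

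The trimeric antenna of photosystem II is built from LHCB1, LHCB2 and LHCB3 (AT5G54270) proteins. LHCB1.3 (AT1G29930), the most abundant of them, had 7795, 7817 and 7659 TPM in the 3 col-0 libraries, 8842, 8735 and 10054 TPM in csld5, and 6691, 6671 and 7273 TPM in the complemented line. The 3 genotypes did not overlap, with csld5 highest and the complemented line lowest. The log2 fold change of csld5 against col-0 was 0.22 ± 0.06 (SE; edgeR adjusted p = 0.00911), and after the length and GC correction it was -0.10 (adjusted p = 0.298), so its direction turned.

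LHCB1.2 (AT1G29910) had 2016, 1998 and 1925 TPM in col-0, 2203, 2263 and 2281 TPM in csld5, and 1690, 1637 and 1751 TPM in the complemented line, again without overlap. Its log2 fold change in csld5 was 0.16 ± 0.05 (edgeR adjusted p = 0.0325) and turned to -0.16 (adjusted p = 0.0604) with the correction. It also did not pass without any 1 of the col-0 libraries, csld5 replicate 2 or complemented replicate 1 (edgeR adjusted p = 0.0504 to 0.0851). LHCB1.1 (AT1G29920) had 1727, 1820 and 1733 TPM in col-0, 1833, 1784 and 1902 TPM in csld5 and 1436, 1495 and 1584 TPM in the complemented line. Here col-0 and csld5 overlapped, and the log2 fold change of 0.02 (adjusted p = 0.747) turned to -0.22 with the correction (edgeR adjusted p = 0.0218). LHCB1.4 (AT2G34430), expressed far below the other copies, had 83.4, 88.3 and 81.1 TPM in col-0, 86.3, 65.3 and 83.4 TPM in csld5 and 56.8, 53.2 and 102 TPM in the complemented line, where replicate 3 stood above the other libraries. Summed to 1 feature, the LHCB1 copies rose by 0.18 ± 0.06 on the log2 scale in csld5 (edgeR adjusted p = 0.0229). The sum was fitted only without the correction, with which the single copies ran from -0.47 (LHCB1.4) to -0.10 (LHCB1.3).

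LHCB2.1 (AT2G05100) had 888, 861 and 902 TPM in col-0, 1137, 1138 and 1188 TPM in csld5 and 736, 760 and 810 TPM in the complemented line. All csld5 libraries were the highest and all complemented libraries the lowest. Its log2 fold change in csld5 was 0.36 ± 0.06 (edgeR adjusted p = 0.000216) and 0.28 after the correction (adjusted p = 0.00323). LHCB2.2 (AT2G05070) rose by 0.19 and LHCB2.3 (AT3G27690) by 0.25 on the log2 scale. With the correction the former was at -0.04 and did not pass, and the latter stayed at 0.25. LHCB3 was at 1757 ± 47.7 TPM in col-0 and 1829 ± 23.0 TPM in csld5 (SD, n = 3), and its log2 fold change of 0.05 did not pass the test.

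LHCB4, LHCB5 (AT4G10340) and LHCB6 (AT1G15820) are the monomeric antenna proteins that join the trimers to the photosystem II core. LHCB4.1 (AT5G01530) had the largest log2 fold change of the higher members. It had 953, 949 and 975 TPM in col-0, 1452, 1493 and 1564 TPM in csld5 and 892, 895 and 951 TPM in the complemented line. The csld5 libraries stood clear of the other 6, whose ranges overlapped. Its counts gave a log2 fold change of 0.62 ± 0.05 (edgeR adjusted p = 2.5e-06), a 1.54-fold rise in counts, and 0.26 after the correction (adjusted p = 0.00498). LHCB4.3 (AT2G40100) rose by 0.38 on the log2 scale, and by 0.28 with the correction. LHCB4.2 (AT3G08940) rose by 0.27 and LHCB6 by 0.36, and neither passed the test with the correction (-0.06 and 0.04). LHCB5 was at 1928 ± 32.3 TPM in col-0 and 1914 ± 29.8 TPM in csld5, a log2 fold change of -0.03 in counts that did not pass the test.

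The LHCA proteins form the belt of antenna around photosystem I. LHCA4 (AT3G47470), the most abundant member of the group, had 1965, 1960 and 1902 TPM in col-0, 1988, 1880 and 1947 TPM in csld5 and 1729, 1710 and 1835 TPM in the complemented line. The col-0 and csld5 libraries were interleaved, with a log2 fold change of -0.02 ± 0.06 (edgeR adjusted p = 0.812). LHCA2 (AT3G61470) rose by 0.32 and LHCA3 (AT1G61520) by 0.18 on the log2 scale, and neither passed with the correction (0.13 and 0.08). LHCA1 (AT3G54890) had a log2 fold change of 0.14 (edgeR adjusted p = 0.0532) and lay higher in all 3 csld5 libraries. With the correction its value turned to -0.10 (edgeR adjusted p = 0.265). LHCA5 (AT1G45474) and LHCA6 (AT1G19150), which are scarce and are known to join photosystem I to the NDH complex, had log2 fold changes of 0.11 and 0.06 that did not pass the test.

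The PSA genes encode the nuclear subunits of the photosystem I core. PSAG (AT1G55670) and PSAK (AT1G30380) are peripheral membrane subunits next to the LHCA belt. PSAK had 1660, 1576 and 1581 TPM in col-0, 1206, 1048 and 893 TPM in csld5 and 1575, 1618 and 1656 TPM in the complemented line. The csld5 libraries lay below all others and differed among themselves more than those of either other genotype, with replicate 3 lowest. Its log2 fold change in csld5 was -0.63 ± 0.10 (edgeR adjusted p = 0.000252), and -0.35 after the correction (adjusted p = 0.00605).

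PSAG had 1902, 1805 and 1993 TPM in col-0, 1493, 1441 and 1337 TPM in csld5 and 1732, 1773 and 1748 TPM in the complemented line, with no overlap between genotypes. In its few counts the log2 fold change in csld5 was -0.92 ± 0.11 (edgeR adjusted p = 3.24e-05), whereas on log2(TPM + 1) it was -0.42 ± 0.07 (limma adjusted p = 0.000643). The direction was the same in both, and the size differed.

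PSAD, PSAE and the chloroplast-encoded PSAC hold ferredoxin on the stromal side. PSAD1 (AT4G02770) fell by 0.25 and PSAD2 (AT1G03130) by 0.37 on the log2 scale in csld5, and the former did not pass with the correction (-0.14). PSAE1 (AT4G28750) had 796, 789 and 835 TPM in col-0, 697, 668 and 613 TPM in csld5 and 729, 760 and 766 TPM in the complemented line, all csld5 libraries being lowest. Its counts had a log2 fold change of -0.36 ± 0.08 (edgeR adjusted p = 0.00393), and its TPM values -0.29 ± 0.06 (limma adjusted p = 0.00288). Its copy PSAE2 (AT2G20260) had 393, 387 and 389 TPM in col-0, 411, 414 and 351 TPM in csld5 and 383, 401 and 403 TPM in the complemented line, overlapping throughout, with a log2 fold change of 0.01 ± 0.07 in csld5 (edgeR adjusted p = 0.915). Summed to 1 feature the PSAE copies had a log2 fold change of -0.08 in counts (edgeR adjusted p = 0.426), where PSAE1 was low. In TPM their sum was 1197 ± 25.1 in col-0, 1051 ± 76.3 in csld5 and 1147 ± 31.1 in the complemented line (SD, n = 3). All csld5 sums were below those of the other genotypes, and the TPM sums were not tested.

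PSAH, PSAL (AT4G12800) and PSAO (AT1G08380) take part in the docking of mobile antenna on photosystem I. PSAH2 (AT1G52230) had 1058, 1056 and 1073 TPM in col-0, 806, 786 and 676 TPM in csld5 and 969, 1028 and 1031 TPM in the complemented line, with csld5 well below the rest. Its log2 fold change was -0.49 ± 0.07 (edgeR adjusted p = 0.000205), and -0.16 after the correction (adjusted p = 0.0932), where it did not pass. PSAH1 (AT3G16140) fell by 0.22 on the log2 scale and did not pass with the correction (-0.19). PSAL was the PSA gene that rose, from 1238 ± 34.5 TPM in col-0 to 1551 ± 39.5 TPM in csld5, with a log2 fold change of 0.33 in counts (edgeR adjusted p = 0.000464) and 0.22 after the correction (adjusted p = 0.0224). PSAO was at 1510 ± 44.6 and 1448 ± 140 TPM and did not pass the test. On the lumenal side, PSAN (AT5G64040), which helps plastocyanin to dock, fell by 0.48 on the log2 scale in csld5 and by 0.21 with the correction. PSAF (AT1G31330), which also binds plastocyanin, had a log2 fold change of 0.00.

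The PSB genes split by subunit. PSBO stabilises the manganese cluster that splits water, and both copies rose. PSBO1 (AT5G66570) had 1409, 1427 and 1423 TPM in col-0, 1903, 1989 and 2160 TPM in csld5 and 1258, 1327 and 1383 TPM in the complemented line, with csld5 clear of the rest. Its log2 fold change was 0.49 ± 0.05 (edgeR adjusted p = 2.16e-05) and 0.15 after the correction (adjusted p = 0.064), where it no longer passed.

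PSBO2 (AT3G50820) had 325, 320 and 350 TPM in col-0, 452, 495 and 510 TPM in csld5 and 306, 322 and 313 TPM in the complemented line. The csld5 libraries were again the highest, and col-0 and the complemented line overlapped. This was a log2 fold change of 0.52 ± 0.06 (edgeR adjusted p = 1.67e-05), and 0.21 after the correction (adjusted p = 0.0132). PSBP1 (AT1G06680) and the PSBQ genes encode the other extrinsic proteins of the water-splitting side, and none of them passed the test, with log2 fold changes of 0.14 for PSBP1, 0.02 for PSBQ1 (AT4G21280) and -0.13 for PSBQ2 (AT4G05180).

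PSBR (AT1G79040), a small subunit needed for stable binding of PSBP, went the other way. It had 3106, 3117 and 3092 TPM in col-0, 2461, 2229 and 2010 TPM in csld5 and 3007, 3043 and 3111 TPM in the complemented line. The csld5 libraries lay below all the others and were spread more widely, with replicate 3 lowest. PSBR fell with a log2 fold change of -0.49 ± 0.08 (edgeR adjusted p = 0.000307), and -0.39 after the correction (adjusted p = 0.00183). Among the small membrane subunits, PSBX (AT2G06520) fell by 0.36 and PSBW (AT2G30570) by 0.21 on the log2 scale, and PSBY (AT1G67740) rose by 0.20. PSBW did not pass with the correction (-0.04).

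The RBCS genes encode the small subunit of RuBisCO. RBCS1A (AT1G67090), the most abundant member of all, had 9021, 8645 and 9649 TPM in col-0, 9850, 9953 and 9128 TPM in csld5 and 8551, 9421 and 8809 TPM in the complemented line. The 3 genotypes overlapped, with a log2 fold change of 0.06 ± 0.07 in csld5 (edgeR adjusted p = 0.529). RBCS3B (AT5G38410) had 3339 ± 241 TPM in col-0 and 3849 ± 78.3 TPM in csld5, a log2 fold change of 0.18 in counts that did not pass (edgeR adjusted p = 0.0526) and did with the correction (0.20, adjusted p = 0.0493). RBCS1B (AT5G38430) and RBCS2B (AT5G38420) had log2 fold changes of -0.12 and 0.02 that did not pass. The 4 RBCS copies summed had a log2 fold change of 0.08 ± 0.07 (edgeR adjusted p = 0.397).

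RCA (AT2G39730), which clears inhibitory sugar phosphates from RuBisCO, was the RuBisCO gene that rose. It had 1033, 1046 and 1193 TPM in col-0, 1496, 1586 and 1738 TPM in csld5 and 979, 1070 and 1027 TPM in the complemented line. All csld5 libraries were above the other 6, which overlapped. RCA had a log2 fold change of 0.53 ± 0.07 in csld5 (edgeR adjusted p = 5.57e-05), a 1.45-fold rise in counts, and 0.20 after the correction (adjusted p = 0.0274).

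**Figure D3:**
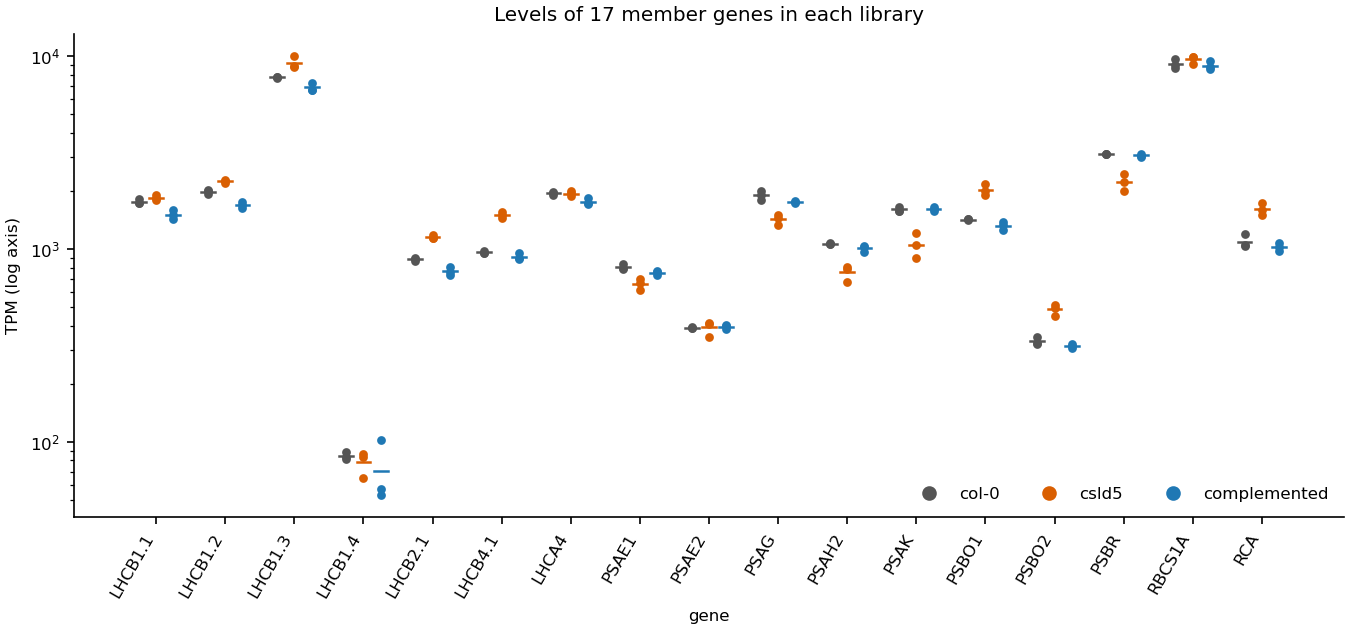
TPM (log axis) of 17 members in each of the 9 libraries, coloured by genotype, with the mean of 3 libraries as a bar; they are the most abundant gene of each role, those with the smallest p in each comparison and copies that moved apart. LHCB4.1, PSBO1, PSBO2 and RCA are higher in the 3 csld5 libraries than in the other 6, and PSAK, PSAH2 and PSBR are lower.

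The share of each copy in the TPM of its subunit was compared by family. LHCB1.3 made up 67.0 ± 0.273% of the LHCB1 TPM in col-0, 68.8 ± 1.22% in csld5 and 67.8 ± 0.110% in the complemented line. RBCS1A made up 62.8 ± 1.23, 61.9 ± 0.509 and 62.5 ± 0.609% of the RBCS TPM in the same order. PSBO1 made up 81.1 ± 0.722, 80.6 ± 0.452 and 80.8 ± 0.616% of the PSBO TPM. The csld5 and col-0 libraries overlapped for RBCS1A and PSBO1, and did not overlap for LHCB1.3 or for the copies that follow. LHCB4.1 made up 55.4 ± 0.392% of the LHCB4 TPM in col-0 and 60.9 ± 0.510% in csld5. PSAH2 moved from 70.5 ± 0.888 to 66.0 ± 0.335% of the PSAH TPM, and PSAE1 from 67.4 ± 0.693 to 62.8 ± 0.958% of the PSAE TPM. In the complemented line they were at 56.4 ± 0.304, 69.9 ± 0.201 and 65.5 ± 0.0325%. The PSAE1 share rests on a TPM that was 8.56 times its CPM per kilobase of exon. By counts PSAE1 was the lower copy, with a mean of 86.4 CPM per kilobase over the 9 libraries against 350 for PSAE2. LHCB2.1 had 42.9 ± 0.204, 45.9 ± 0.565 and 43.2 ± 0.918% of the LHCB2 TPM in col-0, csld5 and the complemented line. PSAD1 had 64.0 ± 0.224, 66.2 ± 0.449 and 63.4 ± 0.206% of the PSAD TPM in that order, and PSBQ1 had 50.2 ± 0.680, 52.7 ± 0.499 and 50.6 ± 1.59% of the PSBQ TPM. These shares were not tested.

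Summed over each role, the LHCB genes reached 20156 ± 48.3 TPM in col-0, 23558 ± 971 TPM in csld5 and 17899 ± 882 TPM in the complemented line, with no overlap between genotypes. The LHCA genes reached 5725 ± 51.2, 6307 ± 52.5 and 5234 ± 209 TPM in the same order, also without overlap. The curve of length and GC was not removed from these or the following sums. The PSA genes had 13252 ± 252 TPM in col-0 and 11387 ± 643 TPM in csld5, and 12644 ± 380 TPM in the complemented line. The PSB genes had 11903 ± 124, 11379 ± 396 and 11417 ± 283 TPM, and the RuBisCO genes 15607 ± 1048, 17192 ± 496 and 15315 ± 901 TPM. The RuBisCO sums of col-0 (14910 to 16813 TPM) overlapped with those of csld5 (16633 to 17582) and of the complemented line (14548 to 16307), while csld5 lay above the complemented line in all libraries.

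**Figure D4:**
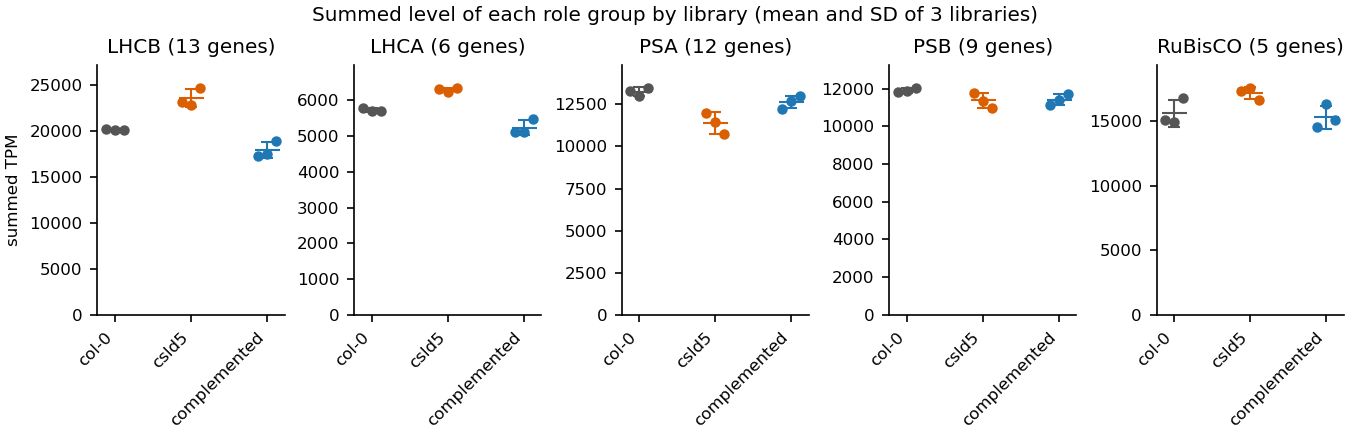
Summed TPM of each role group in each of the 9 libraries (points), with the mean and SD of 3 libraries per genotype; the vertical axes start at 0. LHCB and LHCA sums are highest in csld5 and lowest in the complemented line, PSA sums are lowest in csld5, and the changes are small beside the totals. The curve of length and GC was not removed from these sums.

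The csld5 libraries also differed from each other. The median log2 deviation of the PSA genes from the col-0 mean was -0.14, -0.34 and -0.42 in csld5 replicates 1, 2 and 3, while that of the LHCB genes was 0.25, 0.15 and 0.19. The median over all 45 members was 0.14, 0.08 and -0.04. The order of the PSA medians was that of the share of each library's deviation taken up by length and GC. The part of length and GC in these differences between libraries was not tested.

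Markers of other cell types were compared between the genotypes. Their called counts for csld5 against col-0 stand beside 21.1% higher and 20.4% lower of all tested genes, or 15.4% and 17.7% with the correction. The 3 pollen genes, of which VGDH1 rose by 1.92 on the log2 scale, were all higher in csld5, with summed levels of 135 to 222 TPM in col-0, 247 to 462 TPM in csld5 and 203 to 241 TPM in the complemented line. The 6 vascular genes summed to 74.2 to 76.1, 80.0 to 105 and 70.7 to 73.6 TPM, and 2 of them rose. The 5 tapetum genes summed to 252 to 341, 159 to 279 and 320 to 413 TPM, and 2 fell. The 8 stomatal genes summed to 74.7 to 82.2, 70.9 to 75.3 and 74.7 to 79.5 TPM, with 1 higher and 3 lower. The 10 meristem genes summed to 281 to 285, 242 to 266 and 261 to 272 TPM, with 3 higher and 3 lower of 9 tested. With the length and GC correction 3 pollen and 2 vascular genes were higher, 0 tapetum genes were called, the stomatal genes had 0 higher and 2 lower, and the meristem genes 2 higher and 3 lower. The meristem marker CLV3 was at or near 0 counts in every library, with at most 4. The part of these cell types in the members' changes was not tested.

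The complemented line was compared with csld5, libraries that also entered the comparison above. Of the 45 members 8 rose and 22 fell in the complemented line, against a background of 19.8% higher and 21.1% lower (40.9% in all). In 9 members all complemented libraries lay above all csld5 libraries, against 25.9% of tested genes, and in 26 they lay below, against 25.7%. The LHCB genes had 0 higher and 11 lower of 13 (median log2 fold change -0.39), the LHCA genes 0 and 5 of 6 (median -0.25), the PSA genes 6 and 1 of 12 (median 0.24), the PSB genes 2 and 4 of 9 (median -0.07) and the RuBisCO genes 0 and 1 of 5 (median -0.09). The numbers of higher LHCB and LHCA genes were also 0 at an unadjusted p under 0.05, and by DESeq2 and limma. Of all genes DESeq2 called 4467 of 25760 higher and limma 4716 of 21491. Without col-0 replicate 1, which enters the shared spread estimate, the split was 8 higher and 21 lower, against 4352 and 4498 of 22924 genes. With library totals it was 12 higher and 18 lower, against 28.3% and 14% of all tested genes, and the median of all tested genes moved from 0.02 to 0.11. With the length and GC correction 3 members were higher and 13 lower, against 11.4% and 15.2% of all tested genes (26.5% in all). Without 1 csld5 library this became 5 and 12 (replicate 1), 1 and 13 (replicate 2) or 1 and 13 (replicate 3). All tested genes then had 2508 higher and 2849 lower of 22993, 1935 and 3121 of 22978, and 1806 and 2777 of 22988. By role the corrected counts were 0 higher and 4 lower for LHCB (median -0.16), 0 and 2 for LHCA (median -0.20), 2 and 2 for PSA (median 0.04), 1 and 3 for PSB (median -0.08) and 0 and 2 for RuBisCO (median -0.22). PSAO, at 0.0050 without the correction, was then lower at -0.32 (edgeR adjusted p = 0.00555).

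Among the antenna genes the lowest value in this comparison was that of LHCB4.1, at -0.70 ± 0.05 (edgeR adjusted p = 2.24e-06) and -0.36 after the correction. LHCB2.1 was at -0.57 ± 0.06 (edgeR adjusted p = 1.24e-05) and -0.51 after the correction. LHCB1.3 and LHCB1.2 fell by 0.40 and 0.39 on the log2 scale, and neither passed with the correction (-0.12 and -0.12). LHCB1.1 fell by 0.25 and lost its call likewise (-0.05), while LHCB5 and LHCA4 did not pass in either fit (-0.12 and -0.12 uncorrected). The value of LHCB1.4 was -0.13 (edgeR adjusted p = 0.619), and -0.49 (adjusted p = 0.00399) without complemented replicate 3.

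Of the photosystem I genes, PSAK rose by 0.63 ± 0.10 on the log2 scale in the complemented line (edgeR adjusted p = 0.000264) and by 0.26 with the correction. PSAG rose by 0.76 in counts and by 0.30 on log2(TPM + 1) (limma adjusted p = 0.0045). PSAH2 rose by 0.42 ± 0.07 (edgeR adjusted p = 0.00069), and turned to -0.03 with the correction. PSAE1 rose by 0.29 (edgeR adjusted p = 0.0155), and did not pass without csld5 replicate 2 (adjusted p = 0.0592), without csld5 replicate 3 (adjusted p = 0.0584) or with the correction (0.20, adjusted p = 0.107). PSAL fell by 0.37, in the direction opposite to the other called PSA genes. PSBO1 and PSBO2 fell by 0.59 and 0.60, PSBR rose by 0.46, and RCA fell by 0.62 ± 0.07 (edgeR adjusted p = 2.47e-05). PSBO1, PSBO2, PSBR and RCA passed with the correction too, at -0.29, -0.33, 0.27 and -0.31.

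The complemented line was then set against col-0. Of the 45 members 0 were higher and 1 was lower, LHCB1.2, against 0.948% and 0.578% of all tested genes (1.53% in all). With the length and GC correction the counts were the same, against 1.04% and 0.966%. At an unadjusted p under 0.05, 0 members were higher and 12 lower, 9 of them LHCB and 3 LHCA genes, against 6.36% higher and 4.83% lower of all tested genes at that threshold. DESeq2 called 4 lower, all LHCB, against 1.88% higher and 1.03% lower of its 22757 genes with an adjusted p, and limma on TPM called 0. LHCB1.2 was at a log2 fold change of -0.24 ± 0.05 (edgeR adjusted p = 0.0447). It passed in 3 of the 9 fits that left out 1 library, with edgeR adjusted p between 0.0295 and 0.235. The number of lower members ran from 0 to 3 over these fits, with 0 without col-0 replicate 1 and 3 without complemented replicate 3. Of all tested genes, 69 of 22924 were lower without col-0 replicate 1 and 157 of 22896 without complemented replicate 3.

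Small negative values were the rule in this comparison. Values were below 0 for 42 of the 45 members with TMM factors, 41 with library totals and 45 with the correction, against 11467 of the 22671 tested genes with TMM factors and 13644 with the correction. With TMM factors the median was -0.08 over the members (LHCB -0.18, LHCA -0.13, PSA -0.07, PSB -0.07, RuBisCO -0.03) and -0.00 over all tested genes. With library totals the median over all tested genes was 0.01. In 17 members all complemented libraries lay below all col-0 libraries, against 10.2% of all tested genes, and in 0 they lay above, against 9.37%. The lowest value was that of LHCB2.3, at -0.28 ± 0.08 (edgeR adjusted p = 0.112). A test that passes 1 member does not show that the other 44 were at the wild-type level.

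Other genes of photosynthesis were taken from lists of pathways. For csld5 against col-0 their counts stand beside 21.1% higher and 20.4% lower of all tested genes, or 15.4% and 17.7% with the correction. Of 16 nuclear Calvin cycle genes, which fix and regenerate carbon, 13 rose and 0 fell in csld5 against col-0, with a median log2 fold change of 0.41, and 8 rose with the correction. PGK2, a phosphoglycerate kinase, rose by 0.67 ± 0.06 (edgeR adjusted p = 4.94e-06) and FBA1, an aldolase, by 0.65 ± 0.07 (adjusted p = 2.24e-05). They stayed called with the correction, at 0.32 and 0.32. At an unadjusted p under 0.05 there was 1 lower Calvin cycle gene, with library totals also 1, and by DESeq2 and limma 0. Of 9 genes of photorespiration and carbonic anhydrase 5 rose and 0 fell (median 0.21), 4 of 9 with the correction, and GOX1, a glycolate oxidase, rose by 0.50. No gene of the latter list was lower at an unadjusted p under 0.05, by DESeq2 or by limma.

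Of 17 genes of chlorophyll synthesis 9 rose and 4 fell (median 0.14), and 0 rose and 4 fell with the correction. Beside these counts and those of the next lists, 21.1% of all tested genes rose and 20.4% fell, or 15.4% and 17.7% with the correction. DVR, a divinyl reductase, fell by 0.37 and passed in both fits, whereas PORB, a protochlorophyllide reductase, rose by 0.32 and did not pass with the correction (0.14). Of 14 genes of electron transport and the ATP synthase 5 rose and 4 fell, among them LFNR1, the ferredoxin reductase, which rose by 0.43, and FD2, a leaf ferredoxin, which fell by 0.46. Both passed with the correction, at 0.32 and -0.33. Of 15 genes of assembly and targeting 4 rose and 5 fell, and 0 rose and 1 fell with the correction. CPSRP43, which carries antenna proteins to the thylakoid, rose by 0.47 and did not pass with the correction (0.12).

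Among 15 regulators of these genes 1 rose and 4 fell in csld5, and 0 rose and 7 fell with the correction. The shares of all tested genes were 21.1% higher and 20.4% lower, or 15.4% and 17.7% with the correction. GLK1, a transcription factor that activates antenna and chlorophyll genes, was at 30.4 ± 1.86 TPM in col-0 and 37.3 ± 3.03 TPM in csld5. It rose by 0.27 ± 0.07 (edgeR adjusted p = 0.00797) in counts and turned to -0.11 with the correction. The wild-type libraries had 42.9 to 49.7 CPM of GLK2, a relative of GLK1, the csld5 libraries 40.1 to 44.0 and the complemented libraries 35.3 to 36.9, which were lowest. Its log2 fold change in csld5 was -0.11 (edgeR adjusted p = 0.185), and -0.25 (adjusted p = 0.0111) with the correction. It was -0.34 ± 0.07 in the complemented line against col-0 (adjusted p = 0.0181), which was the regulator called in that comparison. HY5, a factor of light responses, fell by 0.32 ± 0.11 in csld5 (edgeR adjusted p = 0.0269) and did not pass with the correction (-0.22), and its relative HYH fell by 1.13, from 7.87 to 3.59 CPM.

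The chloroplast-encoded partners were low and moved down in csld5. Of 13 tested, 9 fell and 0 rose (median log2 fold change -1.24), with the same counts after the correction, and 0 rose at an unadjusted p under 0.05 or by DESeq2 or limma. Among all tested genes 20.4% fell, and 17.7% with the correction. RBCL, the large subunit of RuBisCO, had 14.5 ± 3.21 CPM in the wild type against 3.94 ± 0.462 CPM in csld5 and 12.1 ± 3.80 CPM in the complemented line, a log2 fold change of -1.88 ± 0.22 in csld5 (edgeR adjusted p = 2.54e-05). PSBA, the D1 core protein of photosystem II, fell by 1.74. Transcripts of chloroplasts carry few poly(A) tails, and the sources used here do not give how RNA was selected for the libraries. These levels are not set against those of the nuclear partners.

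In the complemented line against csld5, 13 of the 16 Calvin cycle genes fell and 0 rose (1 with library totals), 7 of 9 photorespiration genes fell and 0 rose, 9 of 17 chlorophyll genes fell and 1 rose, and 8 of 13 chloroplast-encoded genes rose and 0 fell. In electron transport 3 rose and 5 fell, in assembly and targeting 4 and 6, and among the regulators 4 and 5. These counts stand beside 19.8% higher and 21.1% lower of all tested genes. With the length and GC correction 14 Calvin cycle genes fell and 0 rose, 6 photorespiration genes fell and 0 rose, and 2 chlorophyll genes fell and 1 rose. In electron transport 1 rose and 7 fell, in assembly and targeting 0 and 2, among the regulators 2 and 1, and 8 chloroplast-encoded genes rose and 0 fell. The shares of all tested genes with the correction were 11.4% higher and 15.2% lower. In the complemented line against col-0, edgeR called 0 genes of these lists in either direction except GLK2. The shares of all tested genes were 0.948% higher and 0.578% lower. At an unadjusted p under 0.05, 6 chlorophyll synthesis, 2 assembly, 1 electron transport and 5 regulator genes were lower and 0 genes of any of these lists higher, at a threshold that 4.83% of all tested genes passed as lower and 6.36% as higher. DESeq2 called 1 chlorophyll gene and 1 regulator lower, against 1.03% of its genes with an adjusted p.

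**Figure D5:**
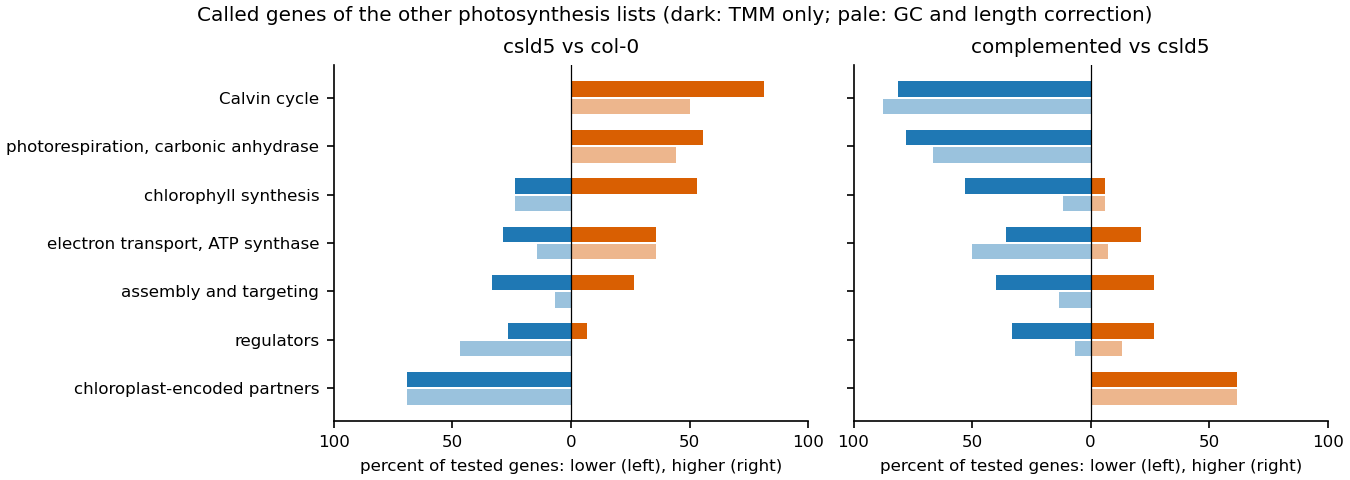
Percent of the tested genes of each photosynthesis list that were called higher (right) or lower (left) at an adjusted p of 0.05, for csld5 against col-0 and for complemented against csld5, which share the csld5 libraries; dark bars use TMM factors alone and pale bars the length and GC correction. Calvin cycle bars point right (13 of 16 genes) and chloroplast-encoded bars left (9 of 13) in the first comparison, whereas the bars of chlorophyll synthesis shrink with the correction. With TMM factors alone 21.1% of all tested genes were higher and 20.4% lower in the first comparison, and 19.8% and 21.1% in the second.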

How the data were processed

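RNA of dissected inflorescence meristems was sequenced in 9 libraries. The deposited tables give, per the file headers, raw read counts per gene and TPM per gene, both made by the authors. Trimmomatic 0.39, HISAT2 2.2.1, featureCounts 2.0.6 and the build TAIR10 are named in the submitters' processing notes; the sources used here give neither their settings nor the tool behind the TPM. Among the TPM values, 8616 empty cells were read as 0, none of them in a member.

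Groups came from the genotype labels. Counts were fitted with edgeR 4.0.16 (R 4.3.3; filterByExpr, TMM factors, quasi-likelihood test) in 1 model over all 9 libraries, Benjamini-Hochberg adjusted over 22671 genes and called at 0.05 with no fold minimum. Fold changes of counts are log2 with edgeR's default prior; the log2 CPM behind the correction curves and the pairing check had a prior count of 2. The standard error was taken from the fold change and its F statistic. The comparisons share libraries. Lists were described by counts of called genes and medians, with no test. Exon length, GC percent and upstream sequence came from RefSeq TAIR10.1, whose locus tags matched 25637 of the 25760 genes; coordinates are those of TAIR10.1. For 22580 tested genes with a model, the correction entered a smooth curve of length and GC per library (mgcv 1.9.3) as an offset. Alternatives were DESeq2 1.42.0, limma 3.58.1 on log2(TPM + 1) or log2(TPM + 0.1) for genes at 1 TPM in 3 libraries, other scalings and filters, a replicate block, copies summed, and each library left out. The fit was tested on simulated data.

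Members with values in every library were the most abundant of each role, the 4 called members of smallest p per direction and comparison, and copies that moved apart; list genes were named from the 3 of smallest p per list and comparison, with CSLD5, GLK1, GLK2 and HY5. Members and lists were chosen with earlier results of these data known. CLV3 falls outside this rule and was chosen after its values were seen. The replicate numbers in the labels did not pair the libraries.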

Additional observations from a re-analysis of the deposited data

How the results depend on the processing

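Each library held at least 35543318 counted reads, and the parts of counting depth and of spread between libraries were not tested. Over the 17 members with full values and the 3 comparisons, 988 of 1071 results under alternatives kept their direction and side of the threshold, 36 lost a call, 9 gained one and 38 turned sign. Many of these alternatives differ little from the main fit. With the length and GC correction 36 of 51 results were kept, 6 lost a call and 9 turned sign. With the replicate block and that correction 35 of 51 were kept. The cause was not tested, except that a fold minimum leaves less to call by construction.

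For csld5 against col-0 (16 higher, 11 lower) the number higher was 10 with library totals, 9 with the GC and length correction, 8 with the replicate block and that correction, and 3 with a log2 fold change of at least 0.5, which left 2 lower. The correction without csld5 replicates 1, 2 and 3 gave 4, 6 and 5 higher, and 5 lower without replicate 2 or 3; these fits were chosen after seeing the data. For complemented against csld5 (8 higher, 22 lower) the correction gave 3 and 13, as it did with the block, the fold minimum 2 and 6, and the correction without csld5 replicate 1, 2 and 3 gave 5 and 12, 1 and 13, and 1 and 13. For complemented against col-0 (0 higher, 1 lower) the number lower was 4 with DESeq2, 2 with only these genotypes in the fit, 2 with the correction without csld5 replicate 1, and 0 with limma on TPM under each of its 3 settings, with copies summed and with the fold minimum. The replicate block alone, where the numbers share no known source (correlation of same-numbered libraries -0.11 to 0.20), gave 17 and 11, 8 and 22, and 0 and 1.

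Leaving out each library gave 11 to 18 higher and 9 to 12 lower for csld5 against col-0, 7 to 11 and 19 to 23 for complemented against csld5, and 0 to 3 lower for complemented against col-0. Of the 22866 to 22993 genes tested in these fits, 3796 to 4933 were higher and 3607 to 4518 lower in the first comparison. In the second 3514 to 4542 were higher and 3840 to 4870 lower, and in the third 65 to 162 were lower. LHCB1.2 in csld5 against col-0 lost its call (edgeR adjusted p 0.0504 to 0.0851) without any one col-0 library, csld5 replicate 2 or complemented replicate 1. Without complemented replicate 3, LHCB1.4 in complemented against col-0 reached -0.62 (adjusted p 0.00929).

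Signs turned in csld5 against col-0 for RBCS1A (-0.0218), LHCB1.1 (-0.0573) and PSAE2 (-0.0698) with library totals, and for LHCB1.3 (-0.0978), LHCB1.2 (-0.162), LHCB1.1 (-0.222) and PSAE2 (-0.0336) with the correction (with the block too -0.0996, -0.162, -0.223 and -0.0331). In complemented against csld5 they turned for RBCS1A with library totals (0.00731), for PSAE2 with DESeq2 size factors (-0.00143) and DESeq2 (-0.00334), and with the correction for PSAH2 (-0.0265), LHCB1.4 (0.182) and PSAE2 (-0.0996), with the block too at -0.0279, 0.147 and -0.0986. In complemented against col-0 they turned with the correction for PSAK (-0.0922) and PSAE2 (-0.133), with the block too at -0.0887 and -0.132. Over left-out libraries LHCA4 in csld5 against col-0 ran from -0.0556 to 0.00718 and PSAE2 from -0.0408 to 0.109. In complemented against csld5 LHCB1.4 ran from -0.493 to 0.0382 and PSAE2 from -0.0889 to 0.0606, and in complemented against col-0 PSAE2 ran from -0.00473 to 0.0408, PSAK from -0.0192 to 0.0394 and RBCS1A from -0.0778 to 0.0225.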
